A study of Mus musculus with 11 samples.

Results

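The genes of the angiopoietin-Tie axis described here are the ligands *Angpt1* and *Angpt2*, the receptor *Tek*, which encodes Tie2, the co-receptor *Tie1* and *Ptprb*, which encodes the phosphatase VE-PTP. They were chosen by name, are 5 of the 29307 genes in the count table, and all 5 were found in it. RNA-sequencing had been done on liver sinusoidal endothelial cells (ECs) of 5 germ-free (GF) mice and 6 conventionally raised (CONV-R) mice with a specific pathogen-free gut microbiota, with 1 library per mouse. Both groups were male C57BL/6J mice, 10 to 12 weeks old. The comparison of GF with CONV-R mice asks how transcripts of the hepatic endothelium differ when the gut microbiota is missing. ECs were enriched from dissociated livers on magnetic beads for CD146 and sorted as CD31+ CD105+ CD146+ cells. Of their RNA, 20 ng was amplified to cDNA before sequencing, so each value stands for a sorted cell population and not for single cells. The paper reports far fewer sorted ECs and far less RNA from GF than from CONV-R livers, and a low viability of the sorted cells. This difference in yield goes with the groups, and its part in the values given here was not tested. The labels number the CONV-R mice 1 to 6 and the GF mice 1, 2, 4, 5 and 6. In the paper's methods 1 further GF library had been removed for its low number of mapped reads.

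Tie2 is a receptor tyrosine kinase of ECs. Angiopoietin-1, made mostly by perivascular and other mesenchymal cells, is its classical agonist and favours a quiet, tightly sealed endothelium, whereas angiopoietin-2 is made by ECs themselves, stored in their Weibel-Palade bodies, and can act as a weak agonist or as an antagonist depending on the context. Tie1 binds no angiopoietin with high affinity but forms complexes with Tie2 and modulates its signal, and VE-PTP removes phosphate from Tie2 and lowers its activity. Active Tie2 signals through PI3 kinase and Akt, which keep the transcription factor FoxO1 out of the nucleus, and *Angpt2* is itself a FoxO1 target gene. In the liver, angiopoietin-2 from sinusoidal ECs is known for its part in regeneration.

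The libraries held 7242717 to 16164588 counts, and 12905 genes had enough counts to be tested. Of these, 965 differed between GF and CONV-R mice at an adjusted p under 0.05 (quasi-likelihood test of edgeR, adjusted by Benjamini and Hochberg's method over all of them), which was 7.48% of the tested genes, with 4.80% higher and 2.67% lower in GF mice. All 12 sinusoidal EC markers on the list used were tested and 0 of them were called, and their summed level was 37308 to 52818 CPM (counts relative to the library total after scaling by the trimmed mean of M-values) in GF and 38971 to 47563 CPM in CONV-R mice. Markers of some other cells differed between the groups. Of 10 Kupffer cell and macrophage markers, 6 were higher in GF mice, with a median Log2FC of 1.54 over the 10, and their sum was 193 to 912 CPM in GF and 85.1 to 224 CPM in CONV-R mice. Of these 6, *Clec4f*, *Vsig4* and, named after its values were seen, *Timd4* lost their call without GF mouse 6 and without CONV-R mouse 2, 4 or 5, and *Timd4* also without GF mouse 2 or CONV-R mouse 3. *Adgre1*, *Csf1r* and *C1qb*, also named after their values were seen, kept their call without each mouse in turn and under the 10 other settings. Of 13 tested markers of portal, arterial and large-vessel endothelium, 4 were higher in GF mice and their sum was 1648 to 2849 CPM against 1357 to 1788 CPM. These 4 were *Ly6a* and, picked after their values were seen, *Cd34*, *Hey1* and *Sema3g*. The Log2FC was above 0 for 9 of the 13, with a median of 0.54 and a lowest value of -0.82. No tested marker of stellate and other mesenchymal cells (6), megakaryocytes and platelets (4), hepatocytes (8), lymphatic endothelium (2), lymphocytes (5) or cholangiocytes (1) was called by edgeR, and the 6 neutrophil markers had too few counts for a test. No marker in any list was at 0 counts in all libraries.

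The gene that carried the difference in the axis was *Angpt2*, and the other ligand, the receptors and the phosphatase gave no call. Of the 4 members with enough counts for a test, 1 was higher in GF mice and 0 were lower, beside 4.80% and 2.67% over all tested genes. It was also the only member whose GF and CONV-R values did not overlap. Among all tested genes, 5.59% had no overlap between the groups, and in 3.22% the GF mice were on the upper side, as here. The median Log2FC of the 4 was 0.13, and that of all tested genes was -0.0061. In these sorted populations a gene's level in CPM cannot tell apart fewer cells of a type from less RNA per cell.

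**Figure D1:**
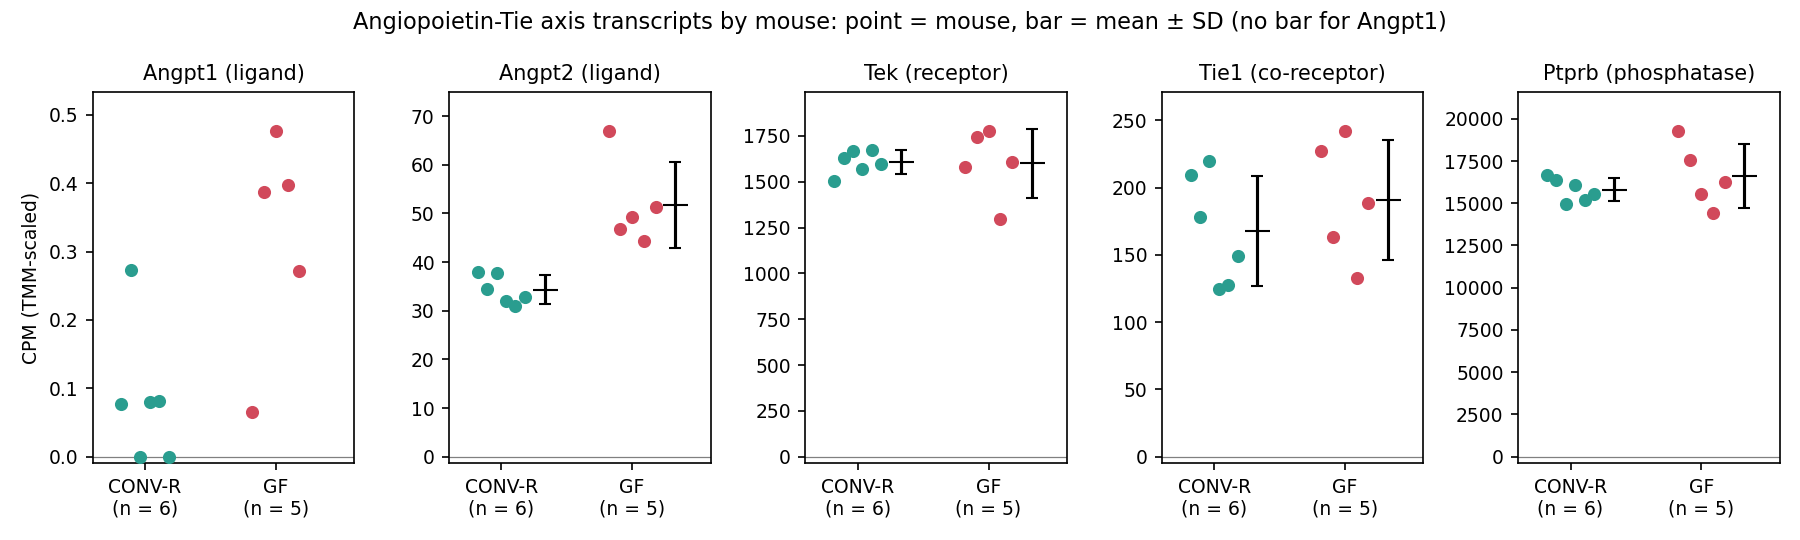
Expression of the 5 axis genes in CPM, scaled by the trimmed mean of M-values, with 1 point per mouse for 6 CONV-R and 5 GF mice; the y axis differs between panels, and bars give mean ± SD except for *Angpt1*, whose points stand for 0 to 5 counts. Only in the *Angpt2* panel do the GF points, 44.3 to 66.9 CPM, all sit above the CONV-R points, 31.0 to 37.9 CPM.

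*Angpt2* (ENSMUSG00000031465) encodes the angiopoietin that ECs secrete. It lies on the minus strand of chromosome 8 at 18690263 to 18741562 in GRCm38, within the span of *Mcph1* on the other strand, with which it shares 0 exon bases. Its level in GF mice 1, 2, 4, 5 and 6 was 66.9, 46.8, 49.3, 44.3 and 51.3 CPM. In CONV-R mice the lowest value was 31.0, the median 33.7 and the highest 37.9 CPM. The groups did not overlap, and the highest value by a wide margin came from GF mouse 1. The means were 51.7 ± 8.89 CPM (SD, n = 5) in GF and 34.3 ± 2.95 CPM (SD, n = 6) in CONV-R mice, resting on 2746 and 2506 counts in all. *Angpt2* was therefore 1.51-fold higher in GF mice (95% interval 1.25 to 1.83), with a Log2FC of 0.59 (SE 0.13) and an adjusted p of 0.00958 by edgeR's quasi-likelihood test. A two-sided exact permutation test of log2 CPM over the mice gave a difference of 0.58 and p = 0.00216, the smallest value that 5 against 6 mice allow. By unadjusted p, *Angpt2* stood at rank 351 of the tested genes.

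The rise in *Angpt2* was called in each of 11 fits that left out 1 mouse, with a Log2FC of 0.48 to 0.65 and an adjusted p of 0.00749 to 0.0306 in edgeR. GF mouse 1 had both the highest *Angpt2* level and the highest sum of large-vessel markers, and without it the Log2FC was 0.48 (adjusted p = 0.0306). GF mouse 6 had the highest sum of Kupffer cell markers, and without it the Log2FC was 0.60 (adjusted p = 0.0218). The part of the cells that carry these markers in the *Angpt2* difference was not tested. Among the 10 other settings of the fit, *Angpt2* was called in 10, with a Log2FC of 0.49 to 0.62.

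*Angpt1* (ENSMUSG00000022309), the ligand that mesenchymal cells supply, was close to the limit of detection. The gene lies on the minus strand of chromosome 15 at 42424723 to 42676977, and 737 of its exon bases are also in the antisense gene *Gm17473*, which had 1 count in all libraries together. GF mice 1, 2, 4, 5 and 6 had 1, 4, 5, 3 and 2 counts. CONV-R mice 1 to 6 had 1, 4, 0, 1, 1 and 0 counts. The groups overlapped, 2 libraries were at 0, and 8 of the 11 were at or under 3 counts, the number that a count of 0 allows at 95%, which stands for 0.186 to 0.414 CPM of the raw library total, without the trimmed mean scaling of the other CPM values. *Angpt1* thus had 22 counts in all and too few for the filter on low counts.

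Pooled over mice, GF libraries held 15 *Angpt1* counts (95% Poisson interval 8.40 to 24.7) and CONV-R libraries 7 (2.81 to 14.4), or 0.284 and 0.0970 CPM of the raw totals, also without that scaling. Their ratio was 2.93 with a 95% interval of 1.13 to 8.50, and these intervals cover counting error only, not the spread between mice. In the edgeR fit without a filter the Log2FC of *Angpt1* was 1.69 (SE 1.16) with an adjusted p of 0.465. The two-sided exact permutation test on log2 CPM gave p = 0.0281, unadjusted, and this rose above 0.05 in 9 of the 11 sets of mice left when 1 mouse was dropped, up to 0.0714. Those 9 were the sets without CONV-R mouse 1, 3, 4, 5 or 6 and without GF mouse 2, 4, 5 or 6, with differences of 0.80 to 0.93 on the log2 scale. A difference in *Angpt1* was not detectable at this depth by the test across genes. Of 15 markers of stellate and other mesenchymal cells, which include known sources of angiopoietin-1, 9 also had too few counts for a test.

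*Tek* (ENSMUSG00000006386), on the plus strand of chromosome 4 at 94739289 to 94874976, encodes Tie2, the receptor of both ligands. GF mice 1, 2, 4, 5 and 6 had 1578, 1743, 1776, 1299 and 1607 CPM. In CONV-R mice the lowest, median and highest values were 1504, 1613 and 1673 CPM. The GF mice lay on both sides of the CONV-R range, with GF mouse 5 lowest and GF mouse 4 highest of all 11. Means were 1601 ± 189 CPM (SD, n = 5) and 1607 ± 63.9 CPM (SD, n = 6), a coefficient of variation of 11.8% in GF against 3.98% in CONV-R mice. The Log2FC was -0.0054 (SE 0.097), with an edgeR adjusted p of 0.984. Its 95% interval of 0.864-fold to 1.15-fold leaves room for moderate differences in either direction but not for one as large as the estimate for *Angpt2*.

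*Tie1* (ENSMUSG00000033191), on the minus strand of chromosome 4 at 118471191 to 118490061, encodes the co-receptor. GF mice 1, 2, 4, 5 and 6 had 227, 164, 242, 133 and 189 CPM, and CONV-R mice had a lowest value of 124, a median of 164 and a highest value of 220 CPM. The groups overlapped over most of their ranges, and within CONV-R mice numbers 4, 5 and 6 lay below 1, 2 and 3. With means of 191 ± 44.9 CPM (SD, n = 5) and 168 ± 41.0 CPM (SD, n = 6), the Log2FC was 0.19 (SE 0.18) and the edgeR adjusted p 0.574. The 95% interval, 0.880-fold to 1.47-fold, was the widest of the 4 tested members when read on the log2 scale, from -0.18 to 0.56.

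*Ptprb* (ENSMUSG00000020154), on the plus strand of chromosome 10 at 116275523 to 116389535, encodes VE-PTP, which acts on Tie2 and on VE-cadherin. Among the genes of the count table, which lists 1 of 1344 single-exon protein-coding genes, it had the most counts in every one of the 11 libraries. It held 1.47% to 1.84% of the counts in that table and 1.03 to 2.00 times the counts of the second gene. GF mice 1, 2, 4, 5 and 6 had 19274, 17574, 15545, 14410 and 16236 CPM. In CONV-R mice the lowest, median and highest values were 14954, 15799 and 16696 CPM. GF mice 1 and 2 lay above and GF mouse 5 below the whole CONV-R range, so the groups overlapped. Means were 16608 ± 1880 CPM (SD, n = 5) and 15805 ± 692 CPM (SD, n = 6). The fold of 1.05 had a 95% interval of 0.911 to 1.21 and an edgeR adjusted p of 0.714. Two-sided exact permutation tests gave p = 0.913 for *Tek*, 0.394 for *Tie1* and 0.40 for *Ptprb*.

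**Figure D2:**
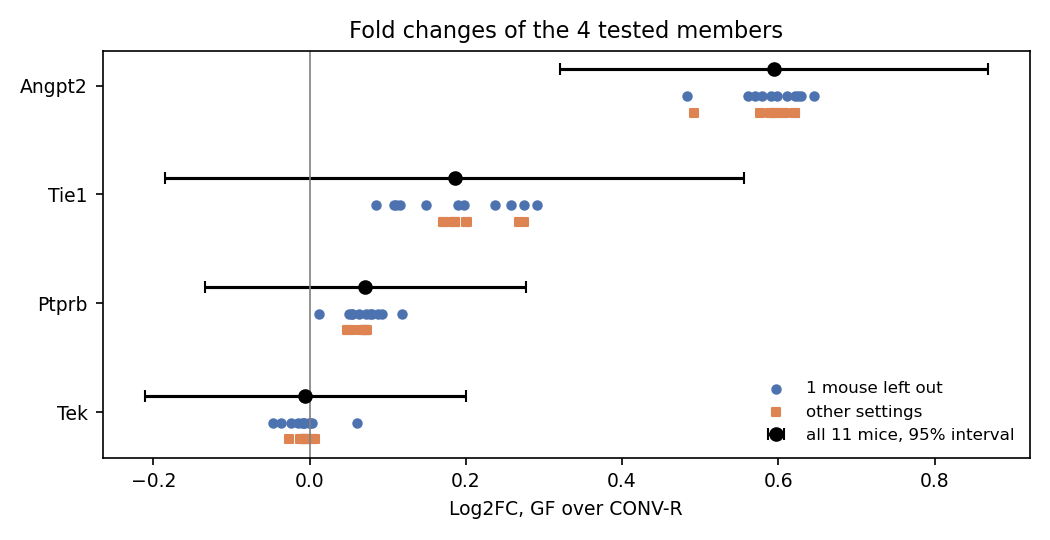
Log2FC of GF over CONV-R mice for the 4 tested axis genes, with the estimate over all 11 mice and its 95% interval in black, fits without 1 mouse as blue points and other settings of the fit as orange squares. All estimates for *Angpt2* lie between 0.48 and 0.65, and those for *Tek* fall on both sides of 0, from -0.047 to 0.061.

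To set the members beside each other, CPM was divided by the length of each gene's merged exons, which was 13.333 kb for *Ptprb*, 4.712 kb for *Tek*, 4.917 kb for *Tie1*, 3.69 kb for *Angpt2* and 5.205 kb for *Angpt1*. On this scale of CPM per kb the phosphatase stood highest at 1246 ± 141 in GF (SD, n = 5) and 1185 ± 51.9 in CONV-R mice (SD, n = 6), rank 6 among the tested genes. *Tek* followed with 340 ± 40.1 and 341 ± 13.6 CPM per kb, rank 50. *Tie1* had 38.8 ± 9.13 and 34.2 ± 8.34 CPM per kb, rank 903. The receptor genes thus differed far more from each other than either differed between groups. *Angpt2* had 14.0 ± 2.41 and 9.30 ± 0.799 CPM per kb, rank 3561, and *Angpt1* was between 0 and 0.0915 CPM per kb. The order phosphatase, Tie2, Tie1, angiopoietin-2, angiopoietin-1 held in every mouse, and no ranges of neighbours in it overlapped over the 11 mice.

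**Figure D3:**
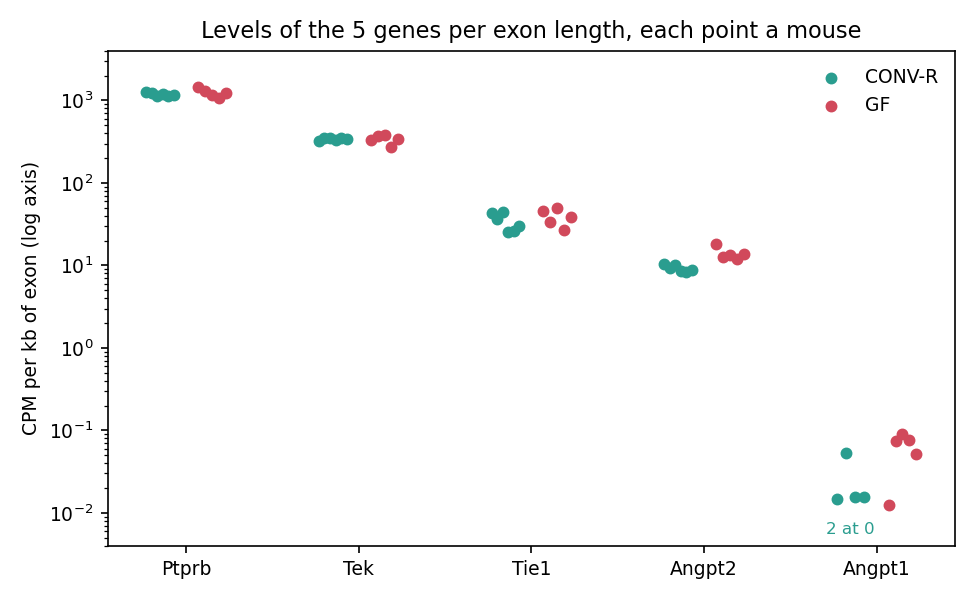
CPM per kb of merged exons of the 5 axis genes on a log axis, with 1 point per mouse and 2 CONV-R mice at 0 for *Angpt1*. *Ptprb* ranges from 1081 to 1446, *Tek* from 276 to 377, *Tie1* from 25.3 to 49.2 and *Angpt2* from 8.40 to 18.1 CPM per kb.

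Ratios within a library do not depend on how libraries were scaled. For each 100 *Tek* counts there were 2.69 to 4.24 *Angpt2* counts in GF mice and 1.85 to 2.52 in CONV-R mice, so the groups did not overlap for the ligand to receptor ratio either. *Tie1* ranged from 9.39 to 14.4 counts per 100 *Tek* counts in GF and from 7.61 to 13.9 in CONV-R mice, and the groups overlapped. *Ptprb* ranged from 875 to 1222 counts per 100 *Tek* counts in GF and from 897 to 1110 in CONV-R mice, again with overlap. Taken per kb, there was 3.09 to 4.32 times as much *Ptprb* as *Tek* signal across all mice. Against *Tie1*, *Angpt2* stood at 20.4 to 33.4 counts per 100 in GF and 17.2 to 25.7 in CONV-R mice, which overlapped. Ratios are given as a description, with no test.

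**Figure D4:**
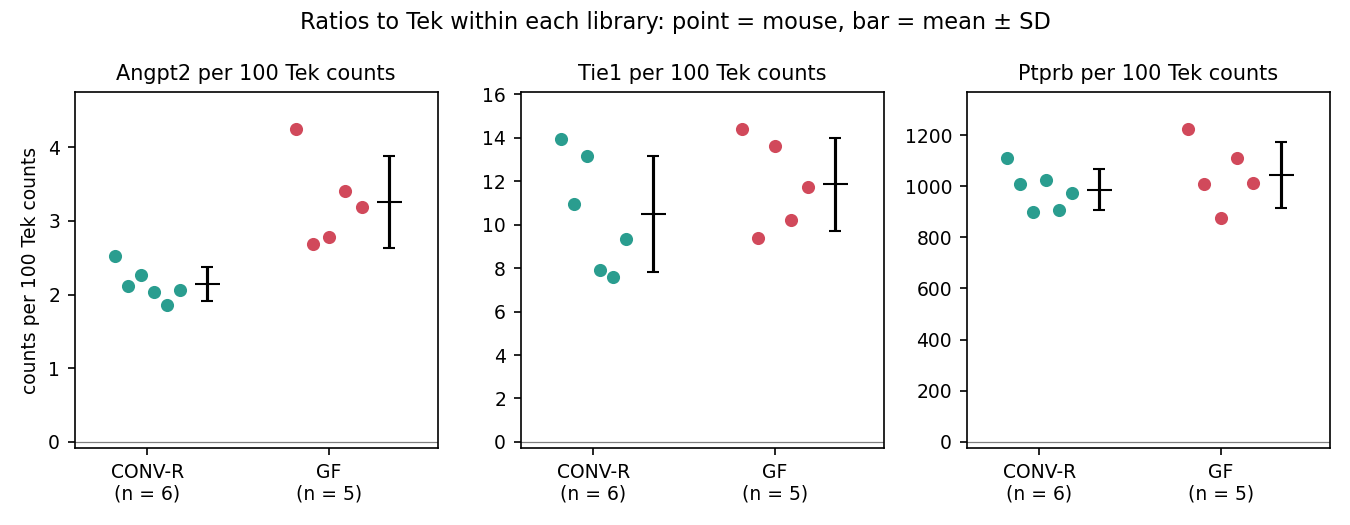
Counts of *Angpt2*, *Tie1* and *Ptprb* per 100 *Tek* counts in the same library, with 1 point per mouse and bars for mean ± SD. The GF points for *Angpt2*, 2.69 to 4.24, lie above all CONV-R points, 1.85 to 2.52, and the groups overlap in the other panels.

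The members did not share 1 profile over the mice. Each tested gene's log2 CPM was centred on its mean and divided by its SD over the 11 libraries, and the root mean square difference from a member served as the measure of likeness, with a median over all tested genes of 1.37 for *Angpt2*. The profile of *Angpt2* was most like those of *Mgll* (0.157), *Rnf213* (0.288) and *Eif4h* (0.290), in each of which the group difference is part of the shared profile. The nearest genes were *Kifap3* (0.369), *Gm21816* (0.430) and *Pop1* (0.472) for *Tek*, *Gaa* (0.265), *Dlst* (0.319) and *Parp1* (0.330) for *Tie1*, and *Galnt10* (0.318), *Arhgap39* (0.330) and *Zc3h7b* (0.348) for *Ptprb*. Among the members themselves the smallest difference was 0.856, between *Angpt2* and *Tie1*, and the largest 1.35, between *Angpt2* and *Tek*. No member was among the 3 nearest genes of another. Each member's differences from the others were still below its median over all tested genes, which was 1.34 to 1.37. By rank the closest was *Angpt2*, at 883 among the genes nearest *Tie1*.

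Other cell-surface partners of the axis, such as integrins that bind angiopoietins and junction proteins that recruit Tie2 or VE-PTP, included 10 tested genes of 14 on the list. Of these, 3 rose in GF mice and 0 fell, beside 4.80% higher and 2.67% lower over all tested genes, with a median Log2FC of 0.36. *Itgb3*, an integrin subunit, had a Log2FC of 1.37 (edgeR adjusted p = 0.0252), *Esam*, a junctional adhesion molecule, 0.62 (0.0261), and *Cav1*, the main coat protein of caveolae, 0.61 (0.0264), and the groups overlapped for each of them. *Cdh5*, which encodes VE-cadherin, had a Log2FC of 0.33 (0.149), *Itgb1* 0.38 (0.129) and the VEGF receptor gene *Kdr* -0.024 (0.95). The count of 3 rested on single mice. It was 0 without CONV-R mouse 4, 1 without CONV-R mouse 2, CONV-R mouse 5, GF mouse 2 or GF mouse 6, 5 without GF mouse 5, and 1 with limma voom. *Itgb3* lost its call without CONV-R mouse 4 or GF mouse 1 or 2, and with limma voom, robust dispersion or the authors' normalized values. *Cav1* lost its call without CONV-R mouse 2, 4 or 5 or GF mouse 2, 5 or 6, and with limma voom. *Esam* lost its call without CONV-R mouse 2, 4, 5 or 6 or GF mouse 4 or 6. The ligand *Angpt4* had 10 counts in GF and 6 in CONV-R mice and was not tested.

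Among adaptors and kinases that carry the Tie2 signal, 27 of 28 genes were tested, 1 rose and 0 fell, beside 4.80% higher and 2.67% lower over all tested genes, with a median Log2FC of 0.046. The 1 gene was *Rhoa*, a small GTPase that controls the actin skeleton, at 117 ± 22.7 CPM (SD, n = 5) in GF and 72.5 ± 7.57 CPM (SD, n = 6) in CONV-R mice. Its Log2FC was 0.69 (edgeR adjusted p = 0.00422), the groups did not overlap, and it was called without each of the 11 mice in turn. The most strongly counted others gave no call, with a Log2FC of -0.28 for *Rap1b*, -0.028 for *Crk* and 0.030 for *Rasa1*. The count of 1 was 3 without CONV-R mouse 1, and 2 without GF mouse 5, with DESeq2 and with the authors' normalized values.

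FoxO factors and genes known as FoxO1 targets, the group to which *Angpt2* also belongs but in which it was not counted, had 18 tested genes of 19. Of these, 5 rose and 0 fell, beside 4.80% higher and 2.67% lower over all tested genes, with a median Log2FC of 0.21. The count of genes that fell was 1 with no filter on low counts, with DESeq2, and without CONV-R mouse 1 or 6. *Pdk4*, a kinase that restrains pyruvate oxidation, went from 83.8 ± 15.8 CPM (SD, n = 6) in CONV-R to 153 ± 15.6 CPM (SD, n = 5) in GF mice, a Log2FC of 0.87 (edgeR adjusted p = 0.000917). *Klf2*, a flow-responsive transcription factor of ECs, had a Log2FC of 0.96 (0.0015), the insulin receptor gene *Insr* 1.27 (0.00266) and the repressor gene *Bcl6* 0.74 (0.00835). In these 4 genes the groups did not overlap, with all GF mice on the upper side as in 3.22% of tested genes, and the call held without each mouse in turn. *Foxo3* also rose, with a Log2FC of 0.73 (0.0199), but its adjusted p was 0.0614 without GF mouse 1. *Foxo1* itself had a Log2FC of 0.11 (0.646), *Txnip* 0.34 (0.0791) and *Cat* 0.099 (0.700). The lowest Log2FC of the list, -1.0 (0.0586), belonged to *Gadd45a*, a stress-response gene named after its values were seen.

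Genes of Weibel-Palade bodies and of granule release, the store from which angiopoietin-2 is secreted, had 22 tested members of 25, of which 2 rose and 1 fell, beside 4.80% higher and 2.67% lower over all tested genes, with a median Log2FC of -0.094. *Rab27a*, a GTPase on these granules, rose by 0.80 on the log2 scale (edgeR adjusted p = 0.0126) and *Plat*, the tissue plasminogen activator, by 1.45 (0.0128). *Rab3b* had a Log2FC of -0.81 (0.0490), which lost its call without CONV-R mouse 1, 2, 3, 4 or 6 and without GF mouse 1, 2 or 5. *Vwf*, whose protein builds the granules, is named outside the rule on genes and after its values were seen. It had 201 ± 130 CPM (SD, n = 5) in GF and 119 ± 59.8 CPM (SD, n = 6) in CONV-R mice, with an adjusted p of 0.223. *Ece1*, *Stxbp5* and *Vamp3* had a Log2FC of 0.58 (0.0939), -0.18 (0.403) and 0.090 (0.695).

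**Figure D5:**
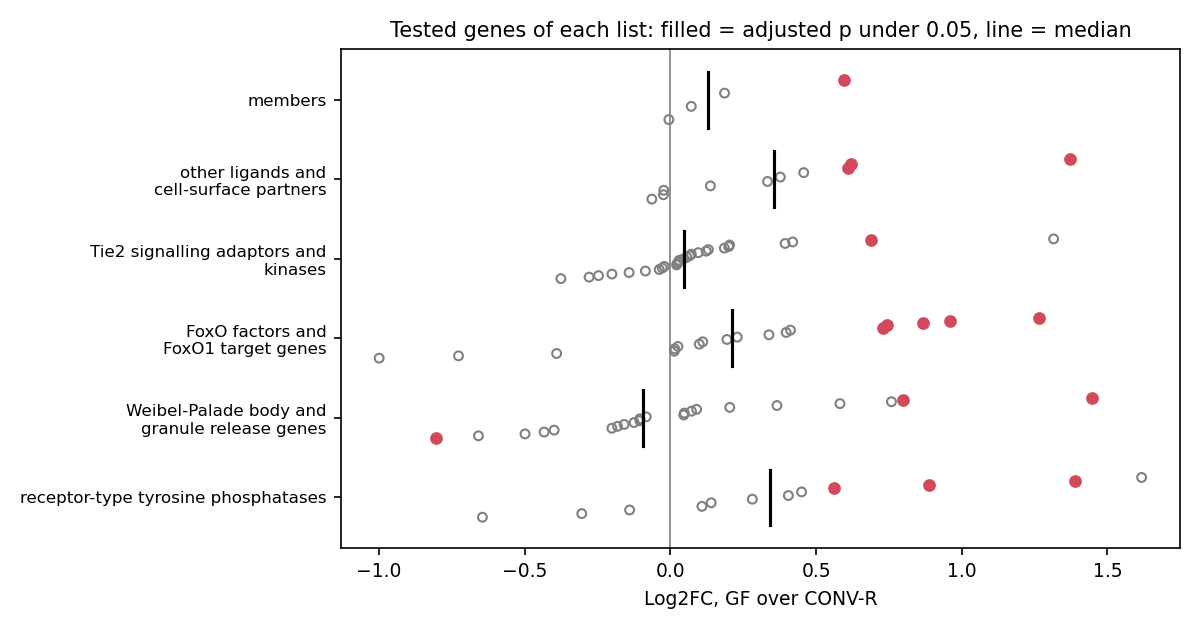
Log2FC of GF over CONV-R mice for the tested genes of the axis and of 5 related lists, with filled red points for an adjusted p under 0.05 in edgeR's quasi-likelihood test, open points for the others and a vertical line at each list's median. All 5 filled points among FoxO genes lie above 0, and the medians of the 5 related lists range from -0.094 to 0.36.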

How the data were processed

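The authors deposited raw counts per gene, made with STAR on GRCm38 and featureCounts, and a second table of log2 values they normalized with the DESeq method; the annotation release and strand setting are not given in the sources used here. Reads were single, 50 bases long. Samples were grouped by their labels, 0 columns were left unmapped, and same-numbered mice of the groups are different animals. Gene spans and exon lengths came from GENCODE M21. The table listed 1 of 1344 single-exon protein-coding genes, so such genes could not enter the lists. The genes, the 6 related lists and the 11 marker lists were chosen with earlier results of these data known.

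Counts were filtered with filterByExpr, scaled by the trimmed mean of M-values and fitted with edgeR 4.0.16 (glmQLFit and glmQLFTest, both groups, no covariate) over 12905 genes, with Benjamini-Hochberg adjustment and a threshold of 0.05. The step was tested on simulated data. Log2 CPM had a prior count of 2. Per-mouse log2 CPM was compared by two-sided exact permutation over 462 splits (scipy 1.17.1). Depth was 7242717 to 16164588 counts a library, so genes such as *Angpt1* rest on single counts. Alternatives were DESeq2 1.42.0, limma 3.58.1 with voom or on the deposited log2 values, other scaling, filters, prior count 0.5, robust dispersion, random thinning of every library to the lowest total (seed 1), a replicate block and each mouse left out. Named were all members, the called genes of each related list (up to 5) with up to 3 of its most strongly counted others, and the 3 genes nearest each member in profile; names outside this are marked, and 1 result of these lists is not reported here.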

Additional observations from a re-analysis of the deposited data

Results flagged for a closer look

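The *Angpt1* level of CONV-R mouse 2 lay far from those of the other CONV-R mice, at 0.273 CPM, or 4 counts, where the others had 0 or 1 count. The gap to the nearest of them was 0.704 of the group's whole range. The 5 genes in both groups made 10 sets of values that were examined in this way, of which 1 stood out. The criterion is set to pick out about 1 in 20 sets by chance, a rate that was not checked for counts this low. The flagged value rests on 4 counts, so its counting error is large. For the other members the criterion picked out no mouse. GF mouse 1 was not picked out for *Angpt2*, but its 66.9 CPM lay well above the other GF mice, at 44.3 to 51.3 CPM.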

How the results depend on the processing

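*Angpt2* kept its direction and call under every alternative run (Log2FC 0.48 to 0.65), and *Tie1* (0.084 to 0.29) and *Ptprb* (0.012 to 0.12) stayed above 0 without a call. *Tek* lay at 0 within its error and changed sign: 0.0067 in the authors' normalized values, 0.0038 without CONV-R mouse 3, 0.00093 without CONV-R mouse 5 and 0.061 without GF mouse 5, over a range of -0.047 to 0.061 with 1 mouse left out, and its per-mouse difference ran from -0.053 to 0.060. For *Angpt1* the per-mouse difference was 0.92, 0.80 to 1.16 with 1 mouse left out and 1.64 with a prior count of 0.5. Its Log2FC of 1.69 was 0.49 in the authors' normalized values and 1.45 to 2.41 with 1 mouse left out, highest without CONV-R mouse 2, and DESeq2 gave it no adjusted p. Over all genes, DESeq2 called 1527 (598 lower in GF mice) against 965 (345 lower) in edgeR, with 15540 genes tested, and the cause was not tested. With 1 mouse left out 622 to 1260 genes were called, 413 to 779 higher and 206 to 481 lower. Without GF mouse 6 the counts were 622, 413 and 209, without CONV-R mouse 4 625 were called and 209 were lower, and without CONV-R mouse 2 or 5 225 or 206 were lower. With a replicate block over the shared numbers, *Angpt2* had a Log2FC of 0.61 (edgeR adjusted p = 0.00607), *Tie1* 0.27, *Tek* -0.0036 and *Ptprb* 0.048, and 1101 genes were called against 931 without the block in the same libraries. Whether the numbers pair the mice was not settled. Deviations of same-numbered libraries correlated at -0.014 to 0.20, and 2 of 5 GF libraries correlated best with their own number. With so few libraries this check cannot exclude a pairing. At this depth *Angpt1* rests on 0 to 5 counts a library.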

Other observations

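*Ptprb* belongs to the receptor-type tyrosine phosphatases, of which 12 of 19 others were tested, 3 rose in GF mice and 0 fell, beside 4.80% higher and 2.67% lower over all tested genes, with a median Log2FC of 0.34. *Ptprg* was at 287 ± 32.5 CPM (SD, n = 5) in GF and 194 ± 25.1 CPM (SD, n = 6) in CONV-R mice, without overlap, a Log2FC of 0.56 (edgeR adjusted p = 0.00632). *Ptprj*, a phosphatase of ECs and blood cells, had a Log2FC of 1.39 (0.0126) and *Ptpru* 0.89 (0.0336), and both overlapped between groups. *Ptpru* lost its call without CONV-R mouse 1, 2, 3, 4 or 6 and without GF mouse 2 or 6, with an adjusted p of up to 0.106. *Ptprm*, *Ptpra* and *Ptprk* gave no call, with a Log2FC of 0.28, 0.11 and 0.14. That *Ptprb* and its relatives differ in their response to the microbiota was not tested.

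Angiopoietin-like genes, which resemble angiopoietins in sequence but encode no Tie2 ligands, moved in both directions. *Angptl1* was at 16.5 ± 3.77 CPM (SD, n = 5) in GF and 27.9 ± 2.00 CPM (SD, n = 6) in CONV-R mice, without overlap, a Log2FC of -0.77 (edgeR adjusted p = 0.00793). *Angptl4*, an inhibitor of lipoprotein lipase, had 1.88 ± 0.603 CPM (SD, n = 5) in GF and 0.327 ± 0.368 CPM (SD, n = 6) in CONV-R mice, without overlap. Its Log2FC was 2.46 (0.0263), and the call was lost without CONV-R mouse 2 or 4 and without GF mouse 1 or 2. After thinning to the lowest total, or with a minimum of 10 counts in every library, it had too few counts for a test. *Angptl8*, *Angptl7* and *Angptl6* had a Log2FC of -0.32 (0.550), -0.097 (0.914) and 0.70 (0.497).

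Of 11 pan-endothelial markers, 1 rose and 1 fell, beside 4.80% higher and 2.67% lower over all tested genes. *Esam* rose, a call lost without CONV-R mouse 2, 4, 5 or 6 and without GF mouse 4 or 6, and *Erg*, a transcription factor of ECs named after its values were seen, fell by 0.68 on the log2 scale (edgeR adjusted p = 0.0122), with 148 CPM in GF and 238 CPM in CONV-R mice on average and no overlap. *Tek* and *Tie1* are on this list.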
